A study of Mus musculus with 3 samples.

Results

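The genes described here are the receptors of the insulin-like growth factors (IGFs), *Igf1r* and *Igf2r*, and the genes of the secreted IGF-binding proteins *Igfbp2* to *Igfbp7*, in the mouse kidney. They were taken as every probe set that the platform annotation assigns to exactly 1 gene symbol, that symbol being 1 of the 8. This gave 22 of the 45101 probe sets of the array, with at least 1 for each of the 8 genes. Kidneys came from male C57BL/6J mice 16 weeks old. In the cardio-renal syndrome group the abdominal aorta was banded below the branching of the renal arteries, and 1 kidney was removed 2 weeks later. The comparison group is labelled uninephrectomy alone, and the series' design text names a sham operation in place of banding. All samples therefore share the loss of 1 kidney, and the remaining kidney was taken whole 6 weeks after that loss. Gene expression was measured on 1 single-colour Affymetrix array a sample, with 1 uninephrectomy array and 2 cardio-renal arrays, called array 1 and array 2 below. Whether each RNA came from a single mouse is not in the labels, so the tests below see only how these samples vary.

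IGF-1 and IGF-2 act mainly through IGF1R, a receptor tyrosine kinase that activates the PI3K-AKT and RAS-MAPK pathways. IGF2R, also the cation-independent mannose 6-phosphate receptor, sorts lysosomal enzymes and removes IGF-2 from outside the cell without signalling as a kinase. The binding proteins hold IGFs in blood and tissue, lengthen their life and limit their access to IGF1R, until proteases such as PAPP-A cut them and release the ligand. In the kidney, IGF-1 raises filtration and takes part in the growth of the remaining kidney after nephrectomy.

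The values are MAS5 signals, a linear intensity per probe set scaled to the same trimmed mean on every array. Differences are given as log2(signal + 28.8) on a cardio-renal array minus that on the uninephrectomy array, a scale that understates changes of dim probe sets. Testing was limited to the 22519 probe sets whose mean on this scale was at or above 7.01, the median over the array; 20 of the 22 members were among them. The kept members covered 7 genes, and the only probe set of *Igfbp6* was left out as too dim. Across the kept probe sets the uninephrectomy array correlated with array 1 at r = 0.982 and with array 2 at 0.989, and the cardio-renal arrays with each other at 0.983; these are correlations across probe sets, not replicates. Array 1 stood apart in genes whose kidney expression depends on sex. The summed signal of 4 male-biased genes was 33727 on the uninephrectomy array, 4297 on array 1 and 33333 on array 2, and all 4 were lowest on array 1. Of 4 female-biased genes, with summed signals of 8725, 18288 and 9319, 3 were above the uninephrectomy array on both others and highest on array 1, where *Slc7a12* gave 6011 against 213 and 695. The fourth, *Slc22a7*, went the other way, with signals of 3985, 460 and 3124. Of heart muscle markers, 8 of 8 stood above the uninephrectomy value on each cardio-renal array, with summed signals of 214, 2024 and 1391, although 5 of the 8 were below the filter. All 7 proximal tubule genes, all 3 of the thick ascending limb, all 3 of the distal tubule and all 6 of the collecting duct passed the filter. The filter uses the mean over the arrays. The lowest signal of these genes on any single array was 625, for *Avpr2* on array 2. Each result below is therefore given for both cardio-renal arrays separately.

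*Igfbp2* and *Igfbp5* are neighbours on chromosome 1, on opposite strands, and their first annotated promoters are shown because they hold the highest and the lowest mean difference among the kept member probe sets. The sequences are from RefSeq on GRCm38.p6 and run from 250 bases before to 50 after the gene's start; all 8 members had an entry. Capitals mark matches, on either strand, to the TATA box TATAAA, its variant TATTTAA, the CAAT box CCAAT, the GC box GGGCGG and the AP-1 site TGACTCA; no marked matches overlap. The variant TATTTAA was added after the sequences had been seen.
Igfbp2, chr1:72824230-72824529, + strand: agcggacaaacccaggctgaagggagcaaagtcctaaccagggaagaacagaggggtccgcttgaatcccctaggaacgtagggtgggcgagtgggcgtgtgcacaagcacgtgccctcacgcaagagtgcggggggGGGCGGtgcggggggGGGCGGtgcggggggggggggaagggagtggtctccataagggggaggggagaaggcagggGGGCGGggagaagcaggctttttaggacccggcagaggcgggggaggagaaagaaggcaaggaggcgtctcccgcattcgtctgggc
Igfbp5, chr1:72874816-72875115, - strand: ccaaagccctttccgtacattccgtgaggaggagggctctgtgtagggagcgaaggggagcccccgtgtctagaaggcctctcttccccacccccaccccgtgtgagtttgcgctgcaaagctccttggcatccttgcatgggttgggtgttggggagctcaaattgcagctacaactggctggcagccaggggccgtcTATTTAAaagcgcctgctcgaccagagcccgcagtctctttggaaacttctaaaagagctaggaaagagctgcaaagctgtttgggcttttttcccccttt
The *Igfbp2* window has a GC content of 67% and held GGGCGG at -113, -98 and -37 from the start. The *Igfbp5* window has a GC content of 56.3% and held the TATA-like TATTTAA at -51 and no GC box. Of all 32851 promoters in the table, 35.7% held GGGCGG and 4.51% held TATTTAA. A match is a string of letters and not a shown binding site.

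No member passed the test of the groups. With limma and Benjamini-Hochberg adjustment over all kept probe sets, 0 of the 20 member probe sets passed, against 0% of all 22519. The lowest adjusted p of a member was 0.9998. At an unadjusted p under 0.05, 1 member probe set passed, against 2.78% of all; it was the brighter *Igfbp5* probe set. That count was 0 with an offset of 100 (lowest member p 0.0501 in limma's fit), 0 with 1 probe set a gene (0.0607), 0 without probe sets that may share sequence, which leaves this one out (0.0524), and 2 after quantile normalization. The lone uninephrectomy array is assumed to vary like the cardio-renal pair, which leaves 1 residual degree of freedom, and an exact permutation test of 1 array against 2 cannot go below p = 0.333. A missed threshold here does not show that values were alike, so 95% intervals from limma are given. Their width and the p-values rest partly on variance that limma shares over all kept probe sets, not on the cardio-renal pair alone.

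Every 1.5-fold count in the report was made on the log2 scale with the added offset, where the mark is a difference of 0.585. Counted by size without a test, no member reached a 1.5-fold higher value on both cardio-renal arrays: the count was 0, against 0.639% of all kept probe sets. The count of those at least 1.5-fold lower in both was also 0, against 0.364% of all. Of the 20 probe sets, 5 lay above the uninephrectomy array on both, 7 below it on both and 8 on either side, against 31.8%, 29.7% and 38.5% of all kept probe sets. After the arrays were scaled to the same median, the members still split as 5, 7 and 8, whereas the shares over all kept probe sets became 23.6% higher and 39.9% lower. Quantile normalization changed the side of 3 members, to 8 above on both, 7 below on both and 5 on either side. The shares over all kept probe sets were then 31.0% higher and 30.8% lower. Both differences use 1 common uninephrectomy array, whose own error moves them together. The median difference over the members was -0.15 in array 1 and 0.03 in array 2, and over all kept probe sets 0.02 and -0.0061.

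**Figure D1:**
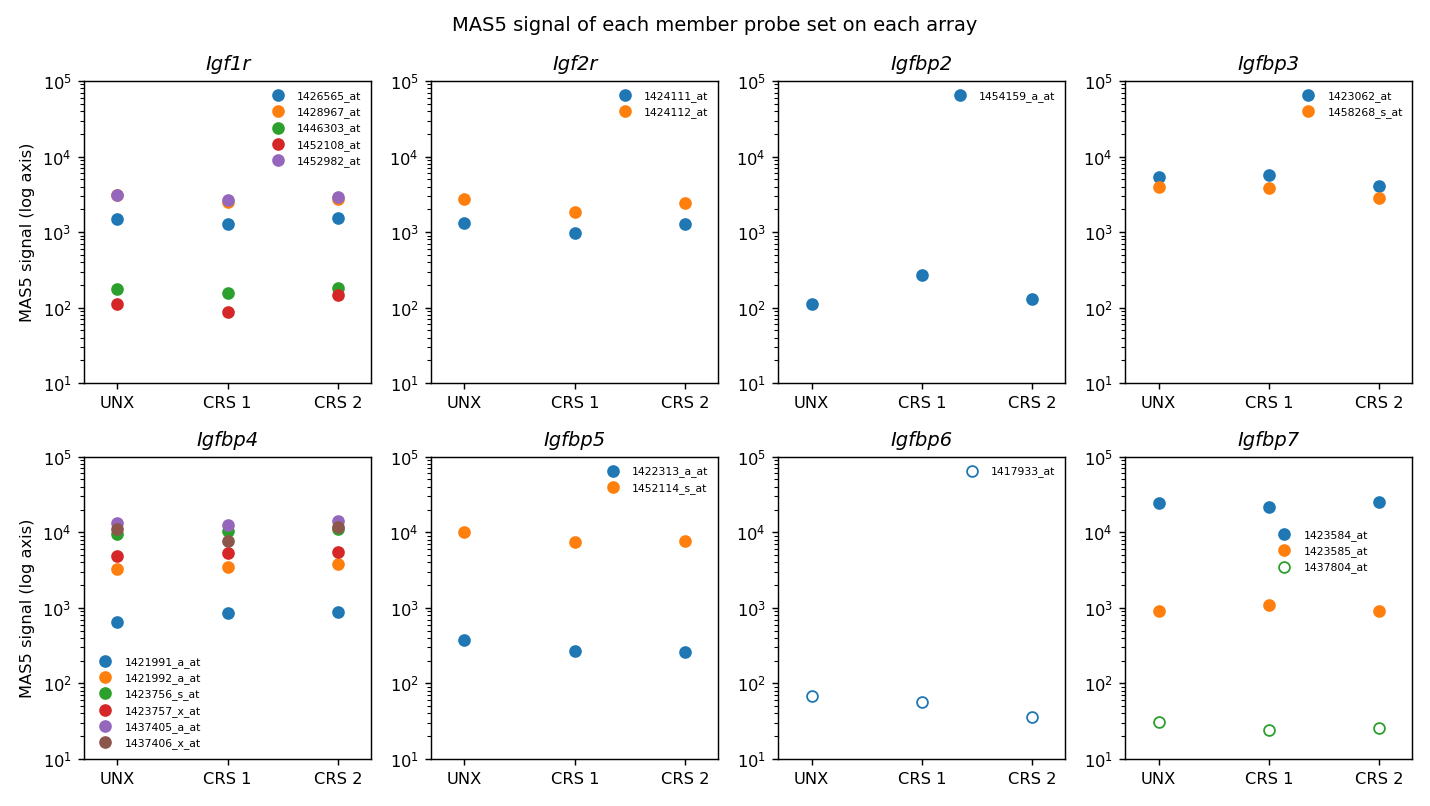
MAS5 signal (log axis) of the 22 member probe sets on the uninephrectomy-alone array (UNX) and cardio-renal arrays 1 and 2 (CRS 1, CRS 2), 1 point per array and 1 colour per probe set; open points are the 2 probe sets below the filter. *Igfbp5* is lower on both cardio-renal arrays for both of its probe sets, and *Igfbp2* is high on array 1 with a signal of 267.

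Of the receptors, *Igf2r* read lower on array 1 and array 2 with both of its probe sets, and more so on array 1. The brighter probe set, 1424112_at, gave 2742 on the uninephrectomy array, 1821 on array 1 and 2462 on array 2. Its differences were -0.58 and -0.15, a mean of -0.37 ± 0.30 (SD, n = 2) with a 95% interval from -0.84 to 0.11. The other, 1424111_at, gave 1332, 971 and 1265, with differences of -0.44 and -0.07. Array 1 thus held the low values, and array 2 lay close to the uninephrectomy array. In array 1, 2.16% of all kept probe sets stood lower than the brighter *Igf2r* probe set, and in array 2 23.7% did. Another probe set, 1440979_at, is annotated to both *Igf2r* and *Airn*, the noncoding RNA transcribed antisense to *Igf2r*, and is no member. It had signals of 10.7, 47.0 and 82.1, all below the filter, with the uninephrectomy array lowest. *M6pr*, the cation-dependent mannose 6-phosphate receptor that shares lysosomal sorting with *Igf2r*, had signals of 6029, 5899 and 5807, with differences of -0.03 and -0.05.

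*Igf1r*, the signalling receptor, was lower in array 1 on all 5 of its probe sets and mixed in array 2. Differences ranged from -0.30 to -0.14 in array 1 and from -0.16 to 0.33 in array 2. The brightest by mean log2 signal, 1452982_at, gave 3075, 2652 and 2960, a mean difference of -0.13 ± 0.11 (SD, n = 2) with a 95% interval from -0.52 to 0.25. A probe set of like signal, 1428967_at, gave 3105, 2521 and 2784. The next, 1426565_at, gave 1509, 1300 and 1547, and the dim 1446303_at gave 178, 158 and 182. Array 1 was lowest on each of these, and on the last 2 named array 2 was the highest. The dimmest, 1452108_at, gave 111, 88.7 and 148, and its cardio-renal values lay on either side of the uninephrectomy one. Of the 5 probe sets, 2 were lower in both arrays and 3 had opposite signs.

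Among the binding proteins, *Igfbp5* was lower in both cardio-renal arrays, which gave nearly equal values. *Igfbp5* encodes a secreted protein that binds IGFs and also extracellular matrix. Its brighter probe set, 1452114_s_at, read 10003 on the uninephrectomy array, 7460 on array 1 and 7755 on array 2. The differences of -0.42 and -0.37 gave a mean of -0.39 ± 0.04 (SD, n = 2), with a 95% interval from -0.79 to -0.00037 and an unadjusted p of 0.0498 in limma's fit (adjusted p = 0.9998). Its other probe set, 1422313_a_at, had signals of 379, 267 and 257, differences of -0.46 and -0.51 and an interval from -0.99 to 0.01. Both cardio-renal arrays thus lay below the uninephrectomy array on both probe sets, and the gap to it was larger than the gap between them. Of all kept probe sets, 3.54% had a lower mean difference than the brighter probe set and 1.94% a lower one than the dimmer. The suffix of 1452114_s_at marks probes that may also match transcripts of other genes, and 1422313_a_at does not carry that suffix. The other members set aside with it as possibly sharing sequence were *Igfbp3* 1458268_s_at and *Igfbp4* 1423756_s_at, 1423757_x_at and 1437406_x_at.

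**Figure D2:**
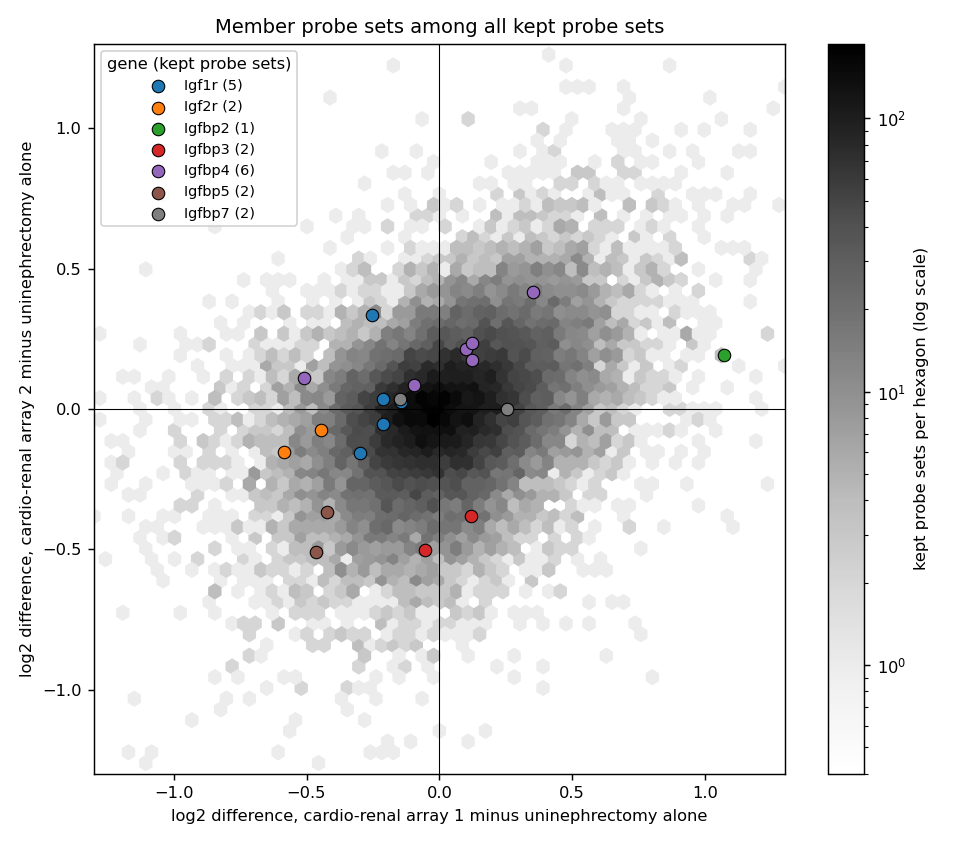
Log2 difference from the uninephrectomy-alone array in cardio-renal array 1 (x axis) and array 2 (y axis) for the 20 kept member probe sets (coloured by gene), over all kept probe sets (grey hexagons, shaded by their number on a log scale; 147 probe sets beyond 1.3 on either axis are not drawn). *Igfbp5* lies at the lower left on both probe sets, *Igfbp3* low mainly in array 2, *Igf2r* low mainly in array 1, and *Igfbp2* at 1.07 in array 1.

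*Igfbp2* differed most between the cardio-renal arrays. IGFBP2 is a circulating carrier whose blood level changes with growth hormone and nutrition. Its single probe set, 1454159_a_at, read 112 on the uninephrectomy array, 267 on array 1 and 132 on array 2. The differences were 1.07 and 0.19, a mean of 0.63 ± 0.62 (SD, n = 2) with a 95% interval from -0.20 to 1.46. Array 1 alone was high, and array 2 lay close to the uninephrectomy array. The gap of 0.88 between the cardio-renal arrays was exceeded by 1.53% of all kept probe sets, and this was the only member at least 1.5-fold higher in array 1, against 3.01% of all. Array 1 is also the array with the shifted sex-biased genes, whose summed male-biased signal was 4297 against 33727; the part of that shift in the *Igfbp2* value was not tested. The probe set is dim, so MAS5 noise weighs more on it than on the brighter members.

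*Igfbp3*, whose product is the main carrier of IGFs in blood, was lower in array 2 on both of its probe sets and lay on either side of the uninephrectomy array in array 1. Probe set 1423062_at had signals of 5305, 5762 and 4069, with differences of 0.12 and -0.38 and a mean of -0.13 ± 0.35 (SD, n = 2; 95% interval from -0.64 to 0.38). Probe set 1458268_s_at had 4013, 3867 and 2827, with differences of -0.05 and -0.50 (interval of the mean from -0.76 to 0.21). Array 2 was thus lowest on both, while array 1 was highest on the first and between the others on the second. In array 2, 6.49% of all kept probe sets stood lower than the first and 3.18% lower than the second. Markers of mesangium and fibroblasts were also lowest in array 2 in sum: their summed signal over 7 genes was 9726, 9220 and 6149, their median differences were -0.06 on array 1 and -0.54 on array 2, and all 7 were above the filter. Endothelial markers had summed signals of 10620, 10780 and 9723 over 10 genes. The part of these markers in the *Igfbp3* value was not tested, and in whole-kidney RNA fewer cells of a type and less RNA per cell cannot be told apart.

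*Igfbp4*, whose product inhibits IGF action until PAPP-A cleaves it, is read by 6 probe sets that did not give 1 direction. The 4 designed to 2 of its sequence records were higher in both cardio-renal arrays. Of these, 1421991_a_at stood furthest out, with signals of 657, 848 and 886 and a mean difference of 0.38 ± 0.04 (SD, n = 2; 95% interval from -0.03 to 0.80). The next, 1423756_s_at, gave 9529, 10376 and 11217, and 1423757_x_at gave 4877, 5312 and 5513. The other of the 4, 1421992_a_at, gave 3237, 3469 and 3760. In all 4 the uninephrectomy array was lowest and array 2 highest. The remaining pair, designed to a different sequence record, was lower in array 1 and higher in array 2. The brightest probe set of the gene, 1437405_a_at, belongs to this pair and gave 13418, 12564 and 14222, with a mean difference of -0.0054 ± 0.13 (SD, n = 2) and an interval from -0.44 to 0.43; after quantile normalization its sign turned, to 0.04. Its partner, 1437406_x_at, gave 10975, 7700 and 11855, differences of -0.51 and 0.11. Array 2 was above the uninephrectomy array on all 6 probe sets, by 0.08 to 0.42.

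*Igfbp7* encodes a secreted protein with low affinity for IGFs that is abundant in vessel walls. Its brightest probe set, 1423584_at, gave 24226, 21888 and 24850, and the mean difference was -0.05 ± 0.13 (SD, n = 2; 95% interval from -0.52 to 0.41). The next, 1423585_at, gave 920, 1103 and 919. The directions in array 1 were opposite on these 2 probe sets, at -0.15 and 0.25, and array 2 lay at 0.04 and -0.0018; after quantile normalization both probe sets were higher in both arrays, at means of 0.03 and 0.13. A dim probe set below the filter, 1437804_at, gave 30.4, 24.2 and 25.9.

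*Igfbp6*, whose product prefers IGF-2 over IGF-1, was read by 1 dim probe set below the filter, 1417933_at. It gave 67.8 on the uninephrectomy array, 56.3 on array 1 and 35.8 on array 2. Both cardio-renal values were the lower ones, at -0.18 and -0.58, and no p-value was computed for it.

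The 2 cardio-renal arrays differed from each other by at least 1.5-fold on 3 of the 20 member probe sets, against 5.94% of all kept probe sets. These were the *Igfbp2* probe set, the *Igf1r* probe set 1452108_at (-0.59, array 1 minus array 2) and the *Igfbp4* probe set 1437406_x_at (-0.62). The median absolute gap between the cardio-renal arrays was 0.18 over the members and 0.17 over all kept probe sets.

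The rest of the IGF pathway was read from a list of 61 other genes, chosen by role, each by its brightest probe set. Of these, 51 had a probe set and 45 were kept. With limma, 0 of the 45 passed Benjamini-Hochberg adjustment, against 0% of all 22519, and 3 had an unadjusted p under 0.05, against 2.63% of 11146 kept genes. Both differences were positive for 12 genes and negative for 15, and they had opposite signs for 18, against 30.6%, 29.8% and 39.6% of those genes. The medians over the list were -0.03 in array 1 and -0.05 in array 2.

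Of the ligands, *Igf1* had signals of 614, 525 and 553 on its brightest probe set, at -0.21 and -0.14. Its 3 other probe sets did not follow: 1419519_at was higher in both arrays, at 0.24 and 0.15, and the remaining 2 had opposite signs. *Igf2* was dim, with signals of 124, 145 and 159. The insulin receptor gene *Insr* had signals of 1493, 1783 and 1751, a mean difference of 0.24 with a 95% interval from -0.14 to 0.61. *Tmem219*, which encodes a cell-surface receptor for IGFBP3, had signals of 408, 518 and 627, at 0.33 and 0.59, and its 2 dimmer probe sets were also higher in both arrays. *Igf1r* and *Insr*, which are related receptors, had opposite directions in array 1 on their brightest probe sets, at -0.21 and 0.25. The difference between them was not tested. The other *Insr* probe sets, 1421380_at and 1450225_at, were below the filter and went the other way in array 1, at -0.085 and -0.35. In array 2 they stood at 0.15 and 0.48.

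**Figure D3:**
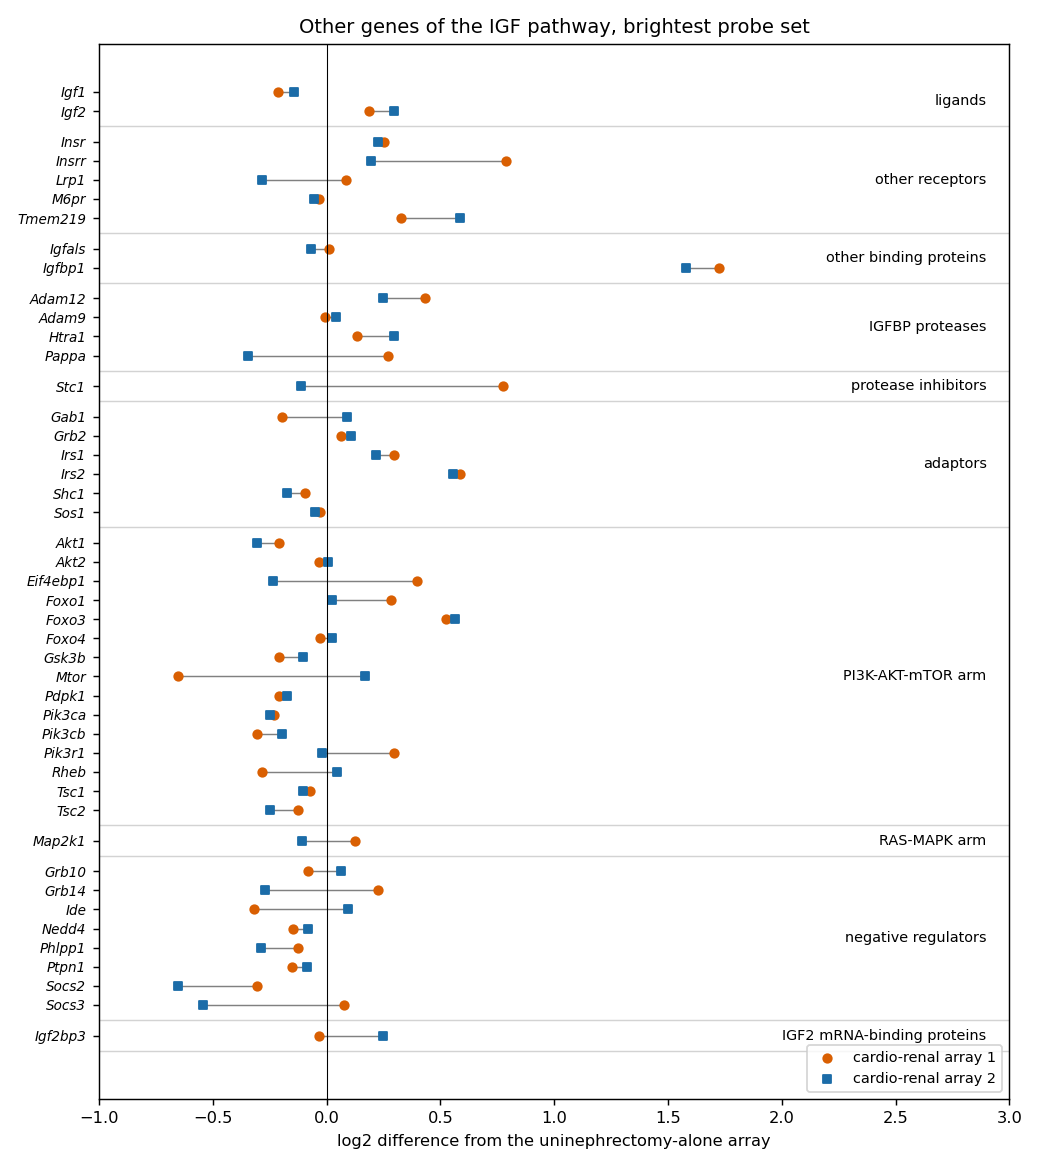
Log2 difference from the uninephrectomy-alone array of the 45 kept IGF pathway genes, by role, in cardio-renal array 1 (circles) and array 2 (squares), brightest probe set of each gene. *Igfbp1* stands furthest to the right on both arrays, at 1.72 and 1.58.

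*Igfbp1* is the neighbour of *Igfbp3* on chromosome 11 and the binding protein that insulin represses. On the log2 scale with the offset, it was the 1 gene of the list to pass the 1.5-fold mark upward on both arrays. Of all kept genes, 0.511% did. Its signals were 179, 658 and 592, differences of 1.72 and 1.58 with a 95% interval of the mean from 1.18 to 2.12 and an adjusted p of 0.141 in limma's fit. *Igfbp3* beside it stood at 0.12 and -0.38. *Igfals*, the acid-labile subunit that joins IGFBP3 and IGF in a ternary complex, had signals of 227, 229 and 215.

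Of 4 kept IGFBP protease genes, 2 were above the uninephrectomy array on both others and 2 had opposite signs, against 30.6% and 39.6% of all kept genes. In limma's fit 0 of the 4 passed an unadjusted p under 0.05, against 2.63% of all kept genes. *Adam12*, a metalloprotease that cuts IGFBP3 and IGFBP5, had signals of 153, 216 and 187, and *Htra1*, a secreted serine protease that cuts IGFBP5, had 3923, 4312 and 4819. *Pappa*, the gene of PAPP-A, had signals of 327, 400 and 252, on either side of the uninephrectomy array. Its relative *Pappa2*, below the filter, had 26.7, 51.3 and 51.9. *Stc1*, of the stanniocalcin family of PAPP-A inhibitors, had 115, 218 and 105, so that array 1 alone was high.

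Downstream of the receptors, *Irs2*, an adaptor of the insulin and IGF-1 receptors, had signals of 115, 187 and 183, at 0.58 and 0.56 with an unadjusted p of 0.0484 in limma's fit. By signal without the offset, *Irs2* was more than 1.5-fold higher on both arrays, by 62.5% on array 1 and 58.8% on array 2. On the log2 scale with the offset it stayed under the 1.5-fold mark. *Irs1* had 1029, 1269 and 1200. In the PI3K-AKT-mTOR arm, 7 of 15 kept genes lay below the uninephrectomy array on both others and 2 above it, against 29.8% and 30.6% of all kept genes. *Foxo3*, a transcription factor that AKT holds out of the nucleus, was among the latter, with signals of 1017, 1476 and 1515 on 1434831_a_at (unadjusted p = 0.0112 in limma's fit); its next probe set stood at 0.33 and 0.20, and its dimmest had opposite signs. *Pik3ca*, a catalytic subunit of PI3K, had 1964, 1667 and 1648 on its brightest probe set, while its other kept probe sets lay on either side of 0 in the 2 arrays. Of the negative regulators, 0 of 8 kept genes lay above the uninephrectomy array on both others and 4 below it, against the same 30.6% and 29.8%. *Socs2*, an inhibitor of growth hormone signalling, had 600, 480 and 371 on its brightest probe set; its other kept one, 1418507_s_at, had 380, 395 and 251, with opposite signs. *Phlpp1*, an AKT phosphatase, had 832, 760 and 677.

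**Figure D4:**
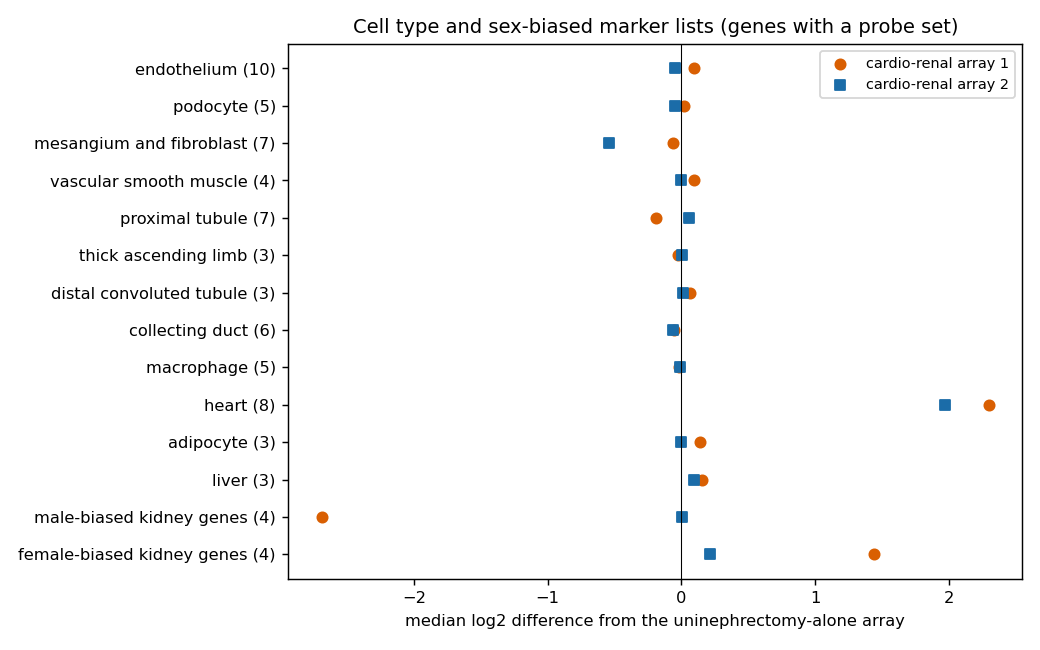
Median log2 difference from the uninephrectomy-alone array of each marker list in cardio-renal array 1 (circles) and array 2 (squares), with the number of genes read in brackets. Mesangium and fibroblast markers are low in array 2 (-0.54), the sex-biased lists depart in array 1, and the heart list is high on both arrays.

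Markers of other kidney cell types were read beside the members. Podocyte markers had summed signals of 3078, 3109 and 2800 over 5 genes, vascular smooth muscle markers 3661, 3837 and 3438 over 4, and macrophage markers 5341, 4571 and 5350 over 5. *Csf1r*, with 3708, 2845 and 3683, made up most of the macrophage sum. Of the 5 macrophage genes, 2 were higher in both cardio-renal arrays (*Cd68* and *C1qb*) and 3 lower in both. Proximal tubule markers had 111153, 98846 and 114589 over 7 genes, lowest in sum in array 1, where *Igf1r* and *Igf2r* were lowest too. Of the 7, *Slc5a12* went the other way and was highest in array 1, with 6645, 8114 and 7099. It was the 1 gene higher in both arrays, while 2 were lower in both and 4 had opposite signs. The part of the proximal tubule markers in the receptor values was not tested. Liver, the main source of circulating IGF-1, was checked through 3 markers. *Alb* had signals of 217, 775 and 338, above the uninephrectomy array on both others, at 1.71 and 0.58 (unadjusted p = 0.0203, adjusted p = 0.9998 in limma's fit). *Ttr* had 13426, 12522 and 14321, with opposite signs, and made up most of the summed signals of 13687, 13350 and 14694. *Apoa1*, below the filter, had 44.0, 52.5 and 35.5. *Alb* and *Igfbp2* were thus both highest on array 1, and the part of liver transcripts in the *Igfbp2* value was not tested.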

How the data were processed

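The authors deposited linear signal intensities, computed with MAS5 per the submitters' processing notes; no version is named. Each array had a mean of 500 after trimming 2% at each end, so no further scaling was applied. Per the labels' protocols, cRNA was made from 250 ng of total RNA with a 3' in vitro transcription kit, which reads transcript ends. MAS5 subtracts mismatch probes, so dim probe sets are noisy, and no detection calls were used. The number of arrays limits the precision.

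Of 45037 probe sets without controls, 34945 had 1 gene symbol in the platform annotation, 932 several and 9160 were unnamed here. The fit used limma 3.58.1 (R 4.3.3; lmFit, and eBayes with a trend) on log2(signal + 28.8) of all 3 arrays, where 28.8 is the lower quartile of array 1's signals, the middle of the 3 quartiles. Tests were two-sided and adjusted by Benjamini-Hochberg over 22519 kept probe sets, at 0.05. The same form of limma fit was run on simulated arrays, where the median estimate had to lie near the added difference. The other steps of the script were not tested in this way. Groups followed the sample labels, and cardio-renal arrays were numbered in accession order. Alternatives changed the offset, scaling, filter, fit, probe set choice and arrays. The members, gene lists and tests were chosen with earlier results of these data known. Every member was to be named, with up to 2 pathway genes per role that stood furthest from the uninephrectomy array in both arrays, and *Igf1*, *Igf2*, *Insr* and *Igfbp1*; *M6pr*, *Igfals*, *Pappa*, *Pappa2*, *Stc1* and the marker genes named singly were added after their values were seen. Genes of like pattern were to be named for members at least 1.5-fold apart in both arrays, and there were none.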

Additional observations from a re-analysis of the deposited data

How the results depend on the processing

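The count of member probe sets past limma's adjusted p was 0 with every offset, scaling, filter, fit and probe set choice tried, as was that of pathway genes, and the lowest member adjusted p lay between 0.9997 and 1. Over all features tested, these fits also gave 0, with 234 to 1840 features at an unadjusted p under 0.05. The count of members at least 1.5-fold higher in both arrays ranged from 0 to 1 when a cardio-renal array was left out: without array 2 it was 1, *Igfbp2*. With 1 array against 1 there is no test, and because the spread comes from a pair, either array alone always lies within 1 SD of the mean; the array values in the report are these values. Of 185 differences of single probe sets recomputed with every array kept, 4 changed sign, from sizes up to 0.055: *Igfbp7* 1423584_at (0.031) and *Igfbp4* 1437405_a_at (0.043) after quantile normalization, *Igf1r* 1452108_at (-0.0028) with arrays scaled to the same median, and *Igfbp4* (0.11) as the mean of its probe sets. The cause was not tested. Of 40 recomputed without array 1 or array 2, 8 changed sign, from sizes up to 0.20: *Igfbp4* 1437406_x_at (0.11) and 1437405_a_at (0.08), *Igf1r* 1426565_at (0.04) and 1446303_at (0.03) and *Igfbp7* 1423584_at (0.04) and 1423585_at (-0.0018) without array 1, and *Igfbp3* 1423062_at (0.12) and *Igf1r* 1452108_at (-0.25) without array 2. Leaving out the uninephrectomy array leaves no comparison. No paired analysis was possible, because there was 1 uninephrectomy array and the labels give no pairing between the groups.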
